A study of Mus musculus with 6 samples.

Results

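The 10 genes described here make, recycle, use or break down glutathione, the tripeptide thiol of the cytosol. They were chosen by symbol (Gclc, Gclm, Gss, Gsr, Glrx, Glrx2, Gpx1, Gpx4, Chac1 and Ggct), and each matched 1 of the 49315 genes in the deposited count table. RNA came from RAW264.7 cells, a macrophage-like line from mouse that the labels call wild type, kept for 24 h with SKI-II at 4 μg/mL or with an equal volume of DMSO, the solvent. SKI-II, a synthetic compound, is known for inhibiting sphingosine kinases. Each condition had 3 libraries, so the cells of 1 line at 1 dose and 1 time were compared. The labels do not say whether replicates were separate cultures, and p-values measure the spread between these libraries only.

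Glutathione is assembled in a pair of steps. Glutamate-cysteine ligase joins glutamate to cysteine in the rate-limiting step, and glutathione synthetase adds glycine. Glutathione peroxidases then spend the reduced form to remove peroxides, glutathione reductase restores it with NADPH, and cyclotransferases or surface peptidases take it apart. Macrophages use this cycle against the oxidants that they make themselves, and the transcription factors Nrf2 and ATF4 are both known to act on genes of the cycle.

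Of the 10 genes, 4 passed the test, 2 in each direction. Gclm, the modifier subunit of glutamate-cysteine ligase, and Chac1, a cytosolic glutathione-degrading enzyme, rose, by 5.40-fold and 2.39-fold. Gpx1, the cytosolic glutathione peroxidase, and Glrx, the cytosolic glutaredoxin, fell, to 0.498 and 0.636 of the DMSO level. The other 6 did not pass the test. In all, 2 of 10 members were higher, against 18.4% of the 12274 genes tested, and 2 of 10 were lower, against 19.7%, at an adjusted p below 0.05 (edgeR's quasi-likelihood test, Benjamini-Hochberg adjustment over all genes tested). These shares are near the background, and so was the median log2 fold change, 0.058 for the members and 0.0038 for all genes tested. Counted together, 4 of 10 members were called in either direction, against 38.0%. Beyond a log2 fold change of 1, the 2 higher members stood against 8.28% of genes, and beyond -1 the 1 lower member, Gpx1, against 7.44%. Groups did not overlap for 5 of 10 members, against 50.3% of genes tested. In 2 members the lowest SKI-II library exceeded the highest DMSO library, against 24.8%, and in 3 the order was the opposite, against 25.5%.

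**Figure D1:**
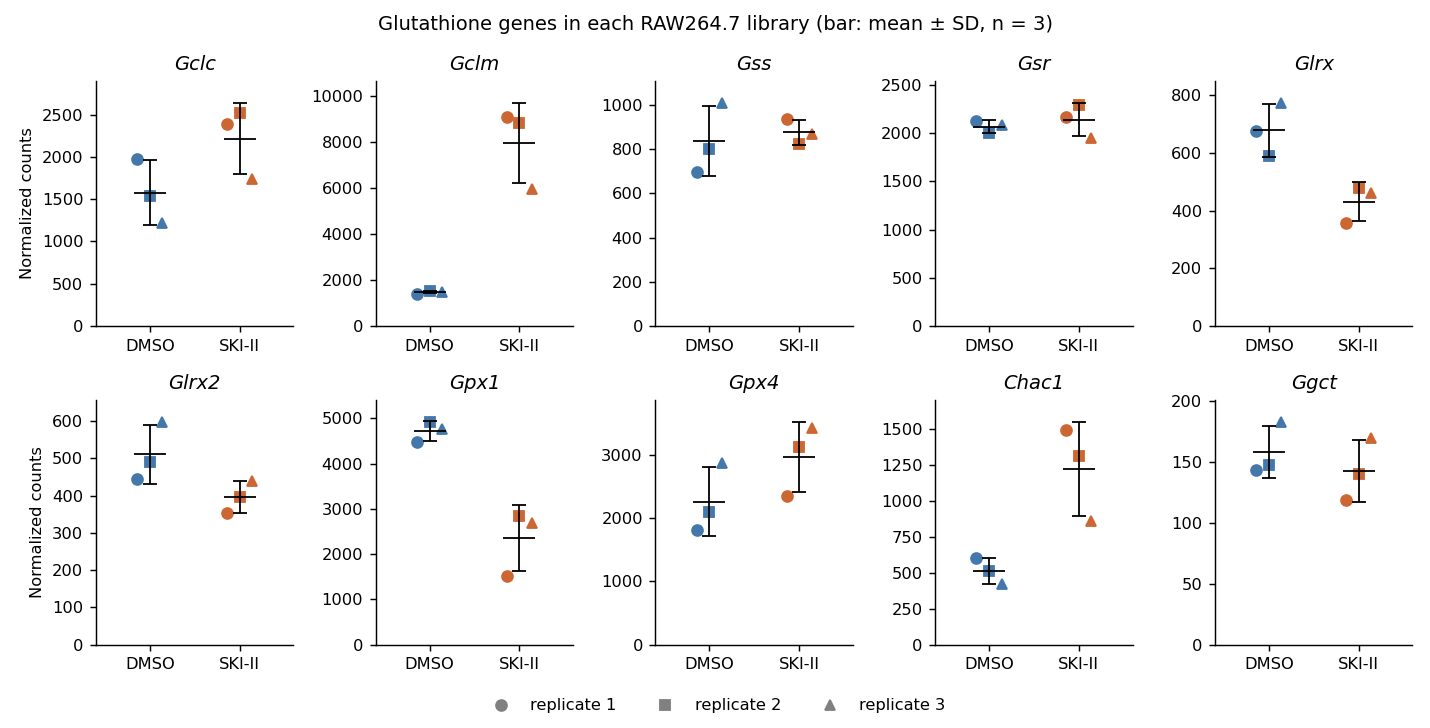
Normalized counts of the 10 genes (y axis, each panel from 0) in the DMSO and SKI-II libraries (x axis), with a symbol for each replicate and bars for the mean and SD (n = 3). Gclm and Chac1 lie higher in every SKI-II library, while Gpx1, Glrx and Glrx2 lie lower in every one.

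The promoters of the most changed members are shown first, since the windows differ in the motifs that they hold. RefSeq windows of GRCm38.p6, from 250 bases before to 50 bases after a transcription start, were at hand for 8 of the 10 members, not for Gclc and Gsr. Each is printed 5′ to 3′ on the strand of its gene, with motif matches in capitals. Gclm, which rose most, starts its window at chr3:122245307-122245606 on the plus strand. Chac1, the other riser, has chr2:119350992-119351291 on the plus strand. Gpx1, which fell most, has chr9:108338830-108339129 on the plus strand.
Gclm: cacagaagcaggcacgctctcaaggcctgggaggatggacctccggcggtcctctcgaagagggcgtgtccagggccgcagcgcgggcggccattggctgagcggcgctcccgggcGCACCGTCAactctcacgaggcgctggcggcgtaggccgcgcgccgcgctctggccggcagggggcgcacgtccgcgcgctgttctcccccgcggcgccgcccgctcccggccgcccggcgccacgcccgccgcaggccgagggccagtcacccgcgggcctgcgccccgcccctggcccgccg
Chac1: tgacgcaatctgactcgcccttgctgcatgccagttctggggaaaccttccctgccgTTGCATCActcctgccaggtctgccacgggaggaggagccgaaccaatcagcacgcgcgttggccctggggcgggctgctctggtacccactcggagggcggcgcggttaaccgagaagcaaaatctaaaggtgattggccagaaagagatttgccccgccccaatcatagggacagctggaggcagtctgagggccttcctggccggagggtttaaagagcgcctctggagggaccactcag
Gpx1: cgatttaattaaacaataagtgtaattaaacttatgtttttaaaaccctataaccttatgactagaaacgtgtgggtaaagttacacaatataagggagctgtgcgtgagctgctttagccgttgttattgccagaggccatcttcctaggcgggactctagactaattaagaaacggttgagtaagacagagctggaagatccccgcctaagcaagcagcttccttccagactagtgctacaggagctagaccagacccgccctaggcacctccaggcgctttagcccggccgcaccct

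Motifs were searched on both strands. The Gclm window held 1 match to TGACNNNGC, the core of the antioxidant response element that Nrf2 is known to bind, read on the minus strand with its first printed base 134 bases before the start. This core was in 12.4% of the 32851 promoter windows of the same length. The Chac1 window held 1 match to TGATGNAA, the core of the C/EBP-ATF response element that ATF4 is known to bind, on the minus strand with its first printed base 193 bases before the start. That core was in 3.97% of all windows. The Gpx1 window held no match to either core nor to TGACGTCA, the cAMP response element, which was in 1.79% of windows. Most of the Gpx1 window lay inside the annotated gene, which starts at 108338903. The windows of Gclm and Chac1 lay mostly before their annotated starts, 122245557 and 119351229, so unlike regions were searched. Among the other members, Ggct alone had a match, with 2 to the antioxidant core, 1 of them starting 174 bases before the start and the other 6 bases after it. No match overlapped one of another motif. The motifs were picked after the fold changes were known. A match is a run of letters in this window and not a binding site.

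Within synthesis, the modifier subunit rose and the other enzymes did not pass the test. Gclm (ENSMUSG00000028124, chromosome 3, 122245557 to 122270732 of GRCm38) held 1406, 1517 and 1492 normalized counts in DMSO replicates 1, 2 and 3 and 9058, 8821 and 5962 in the SKI-II replicates. Normalized counts are counts divided by the scaled library size and brought to the mean library. The DMSO libraries lay close together, with a coefficient of variation of 3.95%, whereas those with SKI-II spread by 21.7%, replicate 3 being the lowest. The log2 fold change was 2.43 with a standard error (SE) of 0.17 (edgeR's test, adjusted p = 1.37e-05), the largest among the members in either direction.

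Gclc (ENSMUSG00000032350, chromosome 9, 77754535 to 77794485) encodes the catalytic subunit, which carries the active site that Gclm tunes. It held 1977, 1539 and 1212 normalized counts with DMSO and 2393, 2513 and 1737 with SKI-II. The groups overlapped, since SKI-II replicate 3 lay below DMSO replicate 1. Its log2 fold change was 0.49 (SE 0.20, adjusted p = 0.0742 from edgeR's test), with a 95% interval of 1.04-fold to 1.90-fold. It passed the threshold without DMSO replicate 1 (adjusted p = 0.0191 from edgeR's test) or without SKI-II replicate 3 (adjusted p = 0.0258).

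Gss (ENSMUSG00000027610, chromosome 2, 155563181 to 155592810) encodes glutathione synthetase, which completes the tripeptide. Its 696, 802 and 1007 normalized counts in DMSO enclosed the 935, 824 and 868 in SKI-II. The log2 fold change was 0.068 (SE 0.15, adjusted p = 0.758 from edgeR's test), and the 95% interval ran from 0.828-fold to 1.33-fold. Exons of Acss2 on the opposite strand covered 6.68% of the annotated exon bases of Gss. Acss2 itself had 973 to 1451 raw counts with DMSO and 406 to 598 with SKI-II. The sources used here do not give the strand setting of the counting, and reads from the shared stretch cannot be told apart.

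The ratio of the ligase subunits within each library does not depend on scaling between libraries. Each count of Gclc went with 0.712, 0.986 and 1.23 raw counts of Gclm in DMSO, and with 3.78, 3.51 and 3.43 in SKI-II. The mean ratio was 3.75-fold higher in SKI-II and the groups did not overlap. An exact two-sided permutation test over the 6 libraries gave p = 0.1, the smallest that 3 against 3 can give, or 0.125 adjusted over the 5 pairs of members compared, so that no ratio in this design could pass the threshold. The SKI-II ratios were the tighter, with an SD of 0.074 on the log2 scale against 0.40 in DMSO.

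Of the members in reduction, Glrx fell, and Gsr and Glrx2 did not pass the test. Gsr (ENSMUSG00000031584, chromosome 8, 33652523 to 33698163), glutathione reductase, had 2124, 2000 and 2078 normalized counts with DMSO and 2171, 2289 and 1951 with SKI-II. It was among the least variable members in both groups, and the treated libraries lay on both sides of the controls. Its log2 fold change was 0.047 (SE 0.11, adjusted p = 0.772 from edgeR's test), with a 95% interval of 0.868-fold to 1.23-fold.

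Glrx (ENSMUSG00000021591, chromosome 13, 75839868 to 75850154) encodes the glutaredoxin of the cytosol, which takes glutathione off modified proteins. Normalized counts were 677, 589 and 772 in DMSO and 356, 478 and 461 in SKI-II, with no overlap. The log2 fold change was -0.65 (SE 0.16, adjusted p = 0.0108 from edgeR's test). Glrx2 (ENSMUSG00000018196, chromosome 1, 143716338 to 143749676), the mitochondrial and nuclear relative, had 444, 489 and 598 in DMSO and 352, 397 and 438 in SKI-II. Every SKI-II library lay below every DMSO library, by a margin of a few counts between the nearest ones, and the log2 fold change of -0.37 (SE 0.16) missed the threshold with an adjusted p of 0.101 from edgeR's test. The count of Glrx per count of Glrx2 was 1.53, 1.20 and 1.29 in DMSO and 1.01, 1.20 and 1.05 in SKI-II. These overlapped (exact permutation p = 0.2, two-sided, also 0.2 adjusted over 5 pairs).

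**Figure D2:**
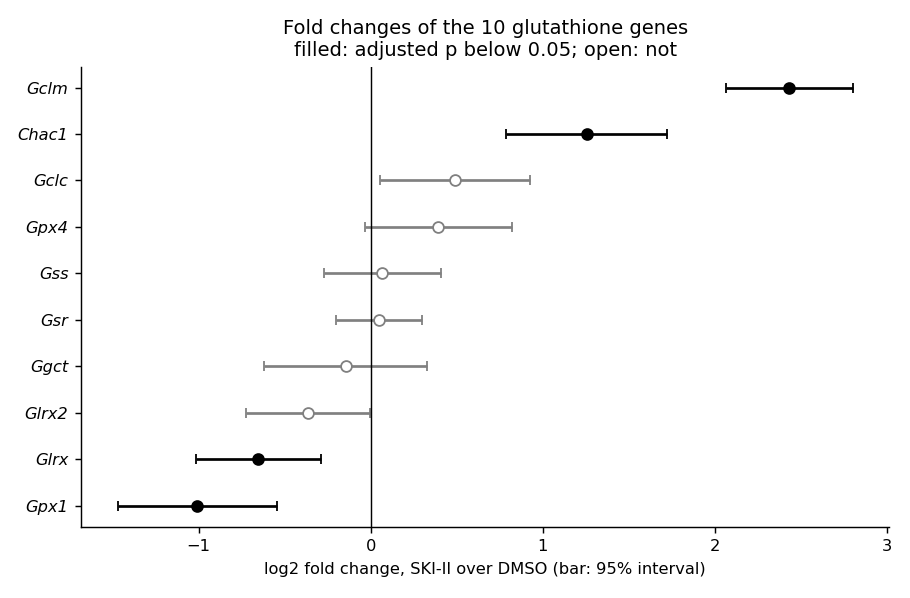
Log2 fold change of each member, SKI-II over DMSO (x axis), with its 95% interval from edgeR's fit, filled where the adjusted p was below 0.05. Gclm at 2.43 and Chac1 at 1.25 lie to the right, Gpx1 at -1.01 and Glrx at -0.65 to the left, and the other 6 are open.

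The glutathione peroxidases with enough reads for the test were Gpx1 and Gpx4, both selenoproteins. Gpx1 (ENSMUSG00000063856, chromosome 9, 108338903 to 108340343) clears hydrogen peroxide. It held 4474, 4925 and 4765 normalized counts with DMSO and 1515, 2845 and 2685 with SKI-II. All treated libraries lay below all controls, and SKI-II replicate 1 lay furthest down. The log2 fold change was -1.01 (SE 0.21, adjusted p = 0.00432 from edgeR's test), just past the -1 that is used in the study's own definition of a changed gene. Without SKI-II replicate 1 it was -0.78 and still called (adjusted p = 0.00267 from edgeR's test). Since the libraries are of bulk RNA, fewer cells that express a gene and less of its RNA in each cell cannot be told apart.

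Gpx4 (ENSMUSG00000075706, chromosome 10, 80047166 to 80056439) reduces lipid peroxides in membranes and holds back ferroptosis. Its normalized counts were 1823, 2105 and 2878 in DMSO and 2364, 3137 and 3438 in SKI-II, and the groups overlapped. The log2 fold change was 0.39 (SE 0.19, adjusted p = 0.133 from edgeR's test), with a 95% interval from 0.977-fold to 1.77-fold. Without DMSO replicate 3, the highest control, it was 0.60 with an adjusted p of 0.0229 from edgeR's test. A processed pseudogene, Gpx4-ps2, was counted on its own, with 81 to 172 raw counts with DMSO and 129 to 244 with SKI-II, and reads may have been split between it and Gpx4.

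The peroxidases were also set against each other. DMSO libraries held 2.45, 2.34 and 1.66 raw counts of Gpx1 per count of Gpx4, and SKI-II libraries 0.641, 0.907 and 0.781. The mean ratio was 2.76-fold lower in SKI-II and the groups lay on either side of equal counts (exact permutation p = 0.1, two-sided, the smallest possible, 0.125 adjusted over 5 pairs). Each count of Gpx1 went with 0.475, 0.406 and 0.436 counts of Gsr in DMSO and with 1.43, 0.804 and 0.727 under SKI-II, a 2.15-fold difference without overlap and with the same exact permutation p of 0.1 (0.125 adjusted). Of the 6 other glutathione peroxidase genes, none had enough reads. Gpx2, Gpx5, Gpx6 and Gpx8 had 0 counts of 96536322 over the 6 libraries, which allows up to 0.0311 CPM (counts scaled to library size) by counting error alone. Gpx3 had 2 counts in DMSO and 7 in SKI-II, and Gpx7 had 0 and 9.

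Among the enzymes of breakdown, Chac1 rose. Chac1 (ENSMUSG00000027313, chromosome 2, 119351229 to 119354381) cleaves glutathione to 5-oxoproline and cysteinylglycine in the cytosol and is known as a target of ATF4 in stressed cells. It held 601, 510 and 422 normalized counts with DMSO and 1492, 1313 and 858 with SKI-II, without overlap. In both conditions replicate 3 was the lowest. The log2 fold change was 1.25 (SE 0.21, adjusted p = 0.00146 from edgeR's test), with a 95% interval of 1.72-fold to 3.30-fold.

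Ggct (ENSMUSG00000002797, chromosome 6, 54982580 to 54992950) encodes gamma-glutamylcyclotransferase, which acts on gamma-glutamyl dipeptides and not on glutathione itself. It was the member with the fewest reads, with 144, 148 and 183 normalized counts with DMSO and 119, 140 and 169 with SKI-II. The groups overlapped, and the log2 fold change was -0.15 (SE 0.21, adjusted p = 0.624 from edgeR's test) with a 95% interval of 0.651-fold to 1.25-fold. The count of Chac1 per count of Ggct was 4.18, 3.45 and 2.30 in DMSO, against 12.6, 9.36 and 5.06 under SKI-II, a 2.62-fold difference without overlap (exact permutation p = 0.1, two-sided, 0.125 adjusted over 5 pairs).

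**Figure D3:**
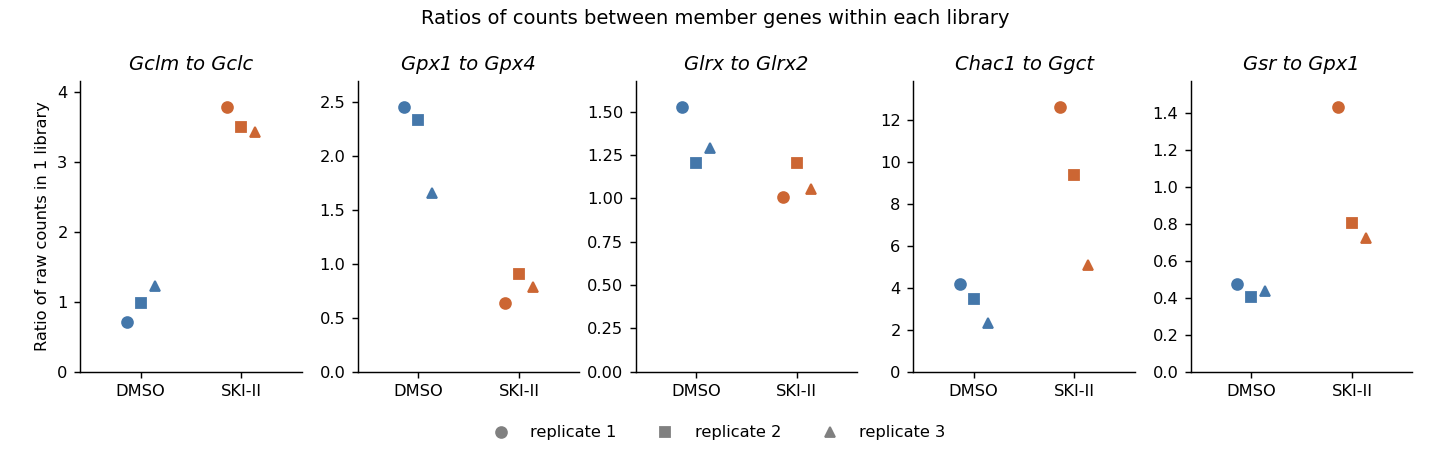
Ratio of the raw counts of a pair of members within each library (y axis, each panel from 0), in DMSO and SKI-II (x axis), with a symbol for each replicate. Gclm to Gclc, Chac1 to Ggct and Gsr to Gpx1 are higher in every SKI-II library, Gpx1 to Gpx4 is lower in every one, and Glrx to Glrx2 overlaps.

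Levels of different genes were compared as CPM per kilobase of annotated exon. In DMSO the level of Gpx1 was 204 ± 9.90 (SD, n = 3), above Gpx4 at 82.0 ± 19.7 (SD, n = 3) and Gsr at 46.8 ± 1.42 (SD, n = 3). Gclc at 26.1 and Chac1 at 19.5 followed on this scale, with overlapping libraries, then Gclm at 14.6, Gss at 8.80 and Glrx at 7.71, the last 2 overlapping, and Glrx2 at 3.63 and Ggct at 1.27. With SKI-II, Gclm stood at 78.7 ± 17.1 (SD, n = 3), and its libraries overlapped those of Gpx1 and Gpx4. The per-length levels of Gpx4, with a mean of 108 and libraries from 85.5 to 124, and Gpx1, with a mean of 102 and libraries from 65.5 to 123, could not be ranked against each other. Gsr at 48.4, Chac1 at 46.5 and Gclc at 36.7 overlapped from each to the next. Gss, Glrx, Glrx2 and Ggct kept their places at the bottom. Lengths count every annotated exon, from 1441 bases for Gpx1 to 8772 for Glrx2, so genes with long unused exons are placed too low.

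**Figure D4:**
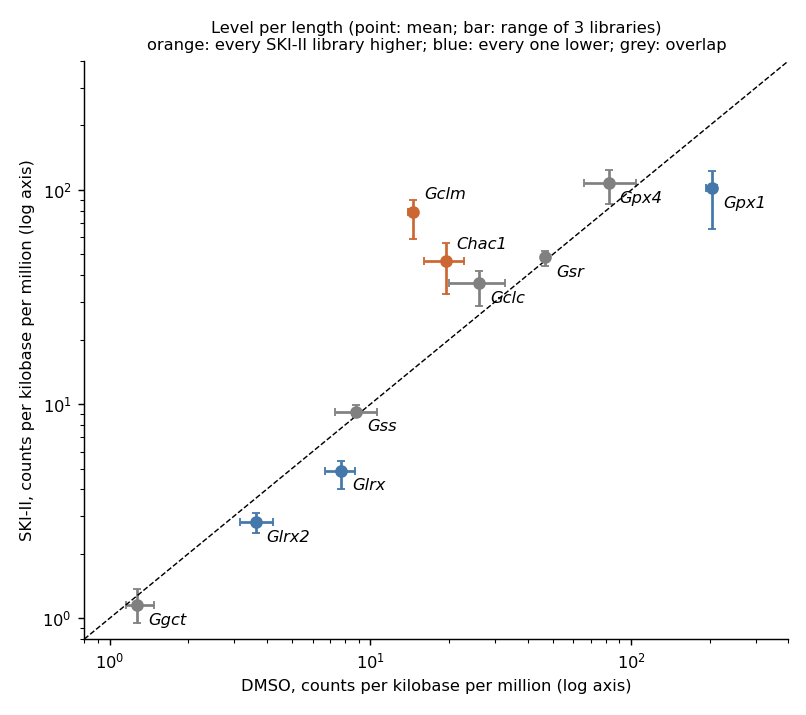
Level of each member in DMSO (x axis) and SKI-II (y axis) as CPM per kilobase of exon, on log axes, with points for means and bars for the range of 3 libraries. Gclm and Chac1 lie above the dashed line of equal levels, Gpx1, Glrx and Glrx2 below it, and the 5 grey genes overlap between the groups.

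The lowest and highest libraries differed from member to member. The same replicate number was lowest in both groups for Gclc, Glrx2, Gpx1, Gpx4, Chac1 and Ggct, and not for Gclm, Gss, Gsr and Glrx. It was highest in both for Glrx2, Gpx1, Gpx4, Chac1 and Ggct, and not for Gclc, Gclm, Gss, Gsr and Glrx. What replicates with the same number shared was not tested. In DMSO, replicate 1 was the lowest library for 6 of the 10 and replicate 3 the highest for 5. With SKI-II, replicate 1 was the lowest for 5 members, among them Gpx1, Glrx and Gpx4, while replicate 3 was the lowest for 4, namely Gclc, Gclm, Gsr and Chac1. The highest SKI-II library was replicate 1, 2 and 3 for 3, 4 and 3 members. The SKI-II libraries with the most Chac1 and the most Gclm were the same, replicate 1, which also held the least Gpx1.

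Other genes of the glutathione pathway, 30 in a list written from general knowledge, were taken from the same fit. Of these 19 had enough reads, 9 rose (against 18.4% of all genes tested), 2 fell (against 19.7%) and 8 did not pass the test, with a median log2 fold change of 0.25. All 3 tested genes of cystine and cysteine supply rose, against the same 18.4%. Slc7a11, the cystine carrier that feeds glutathione synthesis, went from 496, 657 and 682 normalized counts in DMSO to 2209, 1946 and 1362 under SKI-II, for a log2 fold change of 1.59 (SE 0.19, adjusted p = 0.000246 from edgeR's test). Slc3a2, its partner chain in the membrane, went from 5046, 6655 and 7365 to 29463, 12505 and 9544. Its log2 fold change of 1.43 (adjusted p = 0.0116 from edgeR's test) rested in part on SKI-II replicate 1 and was 0.79 without it (adjusted p = 0.0183).

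Other genes of breakdown, at the cell surface or within the cell, had 7 tested, of which 3 rose (against 18.4% of all genes tested) and 1 fell (against 19.7%). Of the 3, Ggt1 rested on few counts, which reached the filter in the SKI-II libraries alone. Dpep2, a membrane dipeptidase that splits leukotriene D4, went from 282, 287 and 349 normalized counts to 929, 1397 and 1215, a log2 fold change of 1.95 (SE 0.17, adjusted p = 4.1e-05 from edgeR's test). Ggt1, the transpeptidase that starts breakdown at the cell surface, was near the limit of detection with 1, 3 and 8 raw counts in DMSO and 12, 13 and 22 under SKI-II, for a log2 fold change of 1.76 (adjusted p = 0.0396 from edgeR's test). That call was lost without any 1 library other than DMSO replicate 3 (adjusted p of up to 0.118), and without DMSO replicate 3 the log2 fold change was 2.65 (adjusted p = 0.0149). Anpep, an aminopeptidase of the surface, went from 4464, 4767 and 4805 normalized counts to 4094, 2762 and 3219, a log2 fold change of -0.48 (adjusted p = 0.0315 from edgeR's test). Leaving out DMSO replicate 2 or 3, or SKI-II replicate 2 or 3, took that call away, with log2 fold changes of -0.47, -0.46, -0.35 and -0.45 in that order and an adjusted p of up to 0.131.

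Of the remaining roles, both glutaredoxins Glrx3 and Glrx5 missed the threshold, 2 of 3 transport genes rose, and 1 of 4 glutathione-dependent enzymes rose and 1 fell, against the same 18.4% and 19.7%. Abcc1, which exports glutathione and its conjugates, went from 6416, 7486 and 8929 normalized counts to 12004, 12198 and 14593, a log2 fold change of 0.76 (SE 0.16, adjusted p = 0.00441 from edgeR's test). Glo1, glyoxalase I, which uses glutathione to clear methylglyoxal, fell from 1371, 1305 and 1756 to 768, 928 and 1040, a log2 fold change of -0.69 (SE 0.16, adjusted p = 0.00732 from edgeR's test).

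Since Gpx1 and Gpx4 carry selenocysteine, a list of 25 other selenoproteins and genes of selenocysteine use was read in the same way. Of 21 tested, 8 rose (against 18.4% of all genes tested), 5 fell (against 19.7%) and 8 did not pass, with a median log2 fold change of 0.093. Called members of either sign were found among the selenoproteins, with 5 higher and 4 lower of 14, against the same shares. Selenos and Selenok, both of the ER membrane and known in ER-associated degradation, rose by 1.32 and 1.15 on the log2 scale (adjusted p = 0.000217 and 0.000695 from edgeR's test). Scly, which frees selenium from selenocysteine, rose by 0.91 (adjusted p = 0.00105). Selenoh, a nucleolar selenoprotein, fell further than Gpx1, from 764, 831 and 967 normalized counts in DMSO to 114, 165 and 241 in SKI-II. Its log2 fold change was -2.29 (SE 0.24, adjusted p = 9.75e-05 from edgeR's test). Txnrd2, the mitochondrial thioredoxin reductase, followed at -0.73 (adjusted p = 0.00238). Selenoo, a mitochondrial selenoprotein, was also at -0.73 (adjusted p = 0.0315), with overlapping groups, and was not called without DMSO replicate 2 or 3 or SKI-II replicate 1 or 2, with an adjusted p of up to 0.115.

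**Figure D5:**
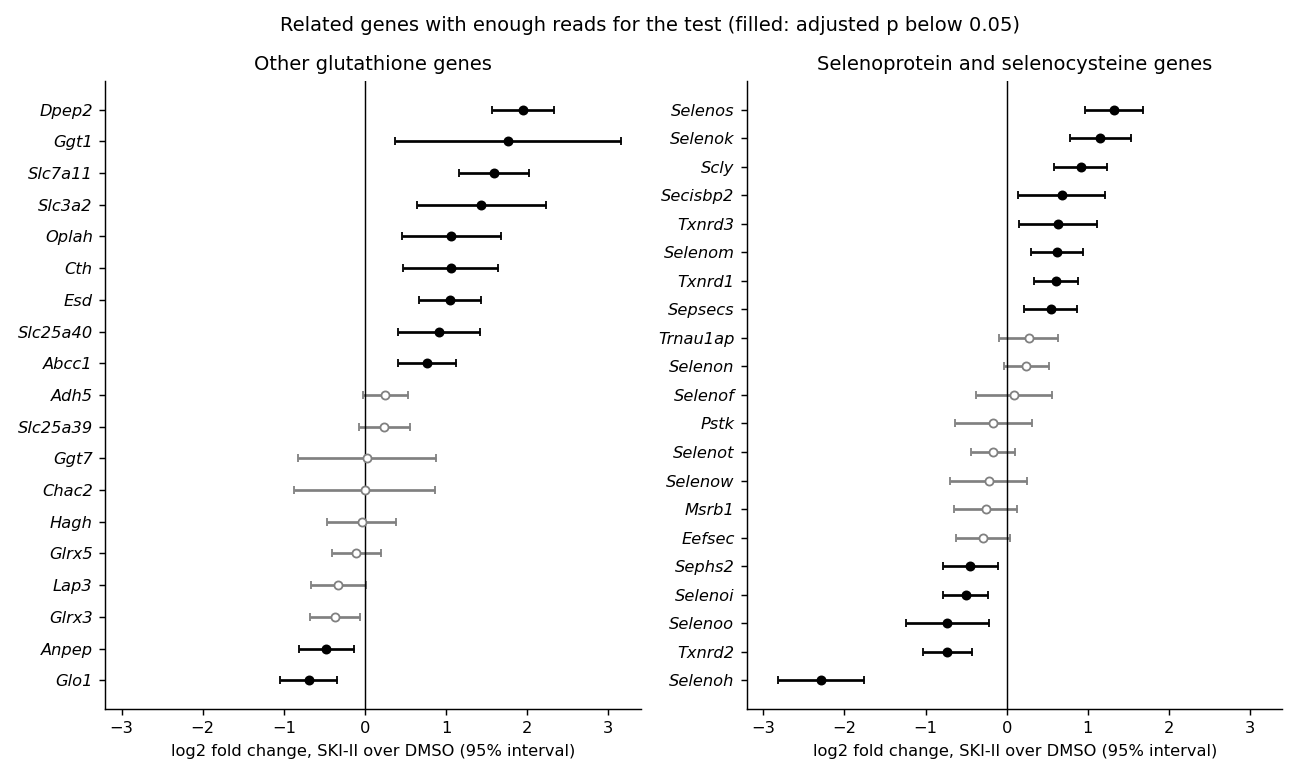
Log2 fold change with its 95% interval, SKI-II over DMSO (x axis), for the tested genes of both related lists (19 on the left, 21 on the right), filled where the adjusted p was below 0.05. Dpep2 at 1.95 and Slc7a11 at 1.59 are among the highest on the left, and Selenoh at -2.29 is the lowest on the right.

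The libraries held 12495957 to 17223480 counts with DMSO and 14213950 to 20050677 with SKI-II. Mitochondrial transcripts took 1.07% to 1.25% of DMSO libraries and 1.38% to 1.71% of SKI-II libraries. The part of this difference in the results was not tested. All 8 macrophage markers were detected, with 2 higher and 3 lower in SKI-II, and their summed level was 138710 to 203149 normalized counts with DMSO and 86994 to 123714 with SKI-II. The sum was mostly Lyz2, at 88328 to 150574 with DMSO and 23620 to 61283 with SKI-II, and Adgre1 and Itgam were the other lower ones. Cd14, at 6554 to 9556 with DMSO and 18305 to 22569 with SKI-II, and Fcgr1 were higher. Without Lyz2 the other 7 summed to 48159 to 52575 with DMSO and 58052 to 63374 with SKI-II, and without Lyz2 and Cd14 the other 6 summed to 41605 to 45681 and 39747 to 42032. Markers of T cells, of fibroblasts and of epithelial cells, each cell type summed by itself, reached at most 21.2 normalized counts in any library, with Cd3g, Cd8a, Epcam, Cdh1 and Krt19 at 0. The 4 endothelial markers summed to 302 to 428 in DMSO and 746 to 1853 in SKI-II, nearly all of it Vwf, while Cdh5, Kdr and Tek stayed at 10.5 or below.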

How the data were processed

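RNA-seq of RAW264.7 cells, 3 DMSO and 3 SKI-II libraries, was analysed from 1 table. According to the submitters' processing notes and the methods, the authors trimmed poly(A)-selected reads with Trimmomatic 0.36, mapped them with STAR 2.5.2b and counted them with featureCounts of Subread 1.5.2, and the deposited table used here holds raw counts per Ensembl gene. Deposited normalized values, which the study mentions, were not used here. The sources used here do not give the genome build, annotation release or strand setting, so names and positions follow GENCODE M21 on GRCm38, which named 48970 of 49315 rows. The methods name DESeq2.

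Here the main test was edgeR 4.0.16 (R 4.3.3), quasi-likelihood F test, with TMM scaling, a filter on expression by group (minimum count 10, minimum total 15), and Benjamini-Hochberg adjustment over 12274 genes, called at an adjusted p below 0.05. Standard errors come from the fitted weights and the moderated dispersion, and intervals are 95%. All genes were fitted and only the members and 2 related lists are described. The members and lists were chosen with earlier results of these data known. Genes named are all members, of each related list the called genes with the 3 highest and the 3 lowest log2 fold changes, whatever their sign (Abcc1, which rose, is thus among the 3 lowest), Slc7a11 and Slc3a2, while Cbs, Glrx3, Glrx5, Acss2, Gpx4-ps2, the other peroxidases and the markers were named after their values were seen. Ratios within a library were compared by exact permutation. Alternatives were RLE scaling, library size alone, DESeq2 1.42.0, limma-voom (limma 3.58.1), other filters, a fold threshold, each library left out, and a replicate block. On counts simulated for this comparison with log2 fold changes of 2, edgeR recovered 99% of 200 changed genes over 12136 genes, with 7 false calls. Every gene was simulated with the same dispersion, so the recovery does not cover smaller changes or genes with a wider spread. Replicates differed by more than sampling noise (chi-square per degree of freedom 16.7 to 64.2). Depth was 12495957 to 20050677 counts per library. Limits from counts cover counting error only. A further marker list is not reported here. Figures were drawn with matplotlib 3.10.9.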

Additional observations from a re-analysis of the deposited data

How the results depend on the processing

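Gclm, Chac1, Gpx1 and Glrx kept their direction under every alternative run and their call under every one but the fold threshold, which Glrx (-0.65) did not reach and Gpx1 only just passed, with log2 fold changes of 2.32 to 2.60, 1.08 to 1.45, -1.17 to -0.78 and -0.75 to -0.54 with each library left out. Of the uncalled members, Gclc reached 0.49 (adjusted p = 0.0084) with no filter in edgeR's test and 0.33 to 0.67 with a library left out, and Gpx4 0.40 (adjusted p = 0.0464) and 0.25 to 0.60. With no filter, fold changes of members hardly moved, so Gclc and Gpx4 passed without a larger change. In that fit the adjusted p from edgeR's test dropped to 8.25e-47 for Gclm and 2.58e-16 for Slc3a2. It did not drop for Gss, Gsr, Glrx2 and Ggct. Gss at -0.063 to 0.22 and Gsr at -0.0026 to 0.11 changed sign when 1 library was left out, Gss without DMSO replicate 1 (-0.063) and Gsr without SKI-II replicate 2 (-0.0026), both far from the threshold. Glrx2 lay at -0.47 to -0.24 and Ggct at -0.29 to -0.028. Members called higher numbered 4 with no filter, when 2619 of 22960 genes were higher, and 2 to 3 with a library left out, when 1507 to 2227 genes were higher and 1766 to 2387 lower. At a log2 fold change beyond 1 there were 1016 higher and 913 lower genes in all, in place of 2255 and 2413, and 2 higher and 1 lower member. Gpx1 lay inside that line with RLE scaling (-0.999), with at least 10 counts in every library (-0.996), and without DMSO replicate 2 (-0.98) or SKI-II replicate 1 (-0.78). The same rule left 0 lower genes of the other glutathione list, and 2 higher and 1 lower of the selenium list. With a library left out, lower genes of the glutathione list numbered 1 (DMSO replicate 2 or 3, SKI-II replicate 2) to 4 (DMSO replicate 1), when 1766 (without DMSO replicate 2) and 2368 (without DMSO replicate 1) of all genes were lower, lower selenium genes 2 (DMSO replicate 2), 3 (SKI-II replicate 1 or 2) or up to 5, and higher selenium genes 5 (SKI-II replicate 2) to 8. Ggt1 was also not called by DESeq2 (adjusted p = 0.0828). The causes were not tested.

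The replicate numbers are shared between the groups, but the labels give no pairing, and deviations from the group means correlated by 0.246, 0.00994 and 0.458 for replicates 1, 2 and 3, so the numbers were not taken as pairs. With the replicate block Gclc (0.50, adjusted p = 0.00777), Gpx4 (0.40, adjusted p = 0.0145) and Glrx2 (-0.36, adjusted p = 0.0421) passed edgeR's test, which gave 4 higher members, and the other glutathione list had 4 lower genes, while over all 12274 genes 2765 were higher and 2819 lower. DMSO replicate 1 correlated best with SKI-II replicate 2, at 0.296, and DMSO replicate 2 with SKI-II replicate 1, at 0.0417. Ggt1 rested on the few counts given above. All scalings left the median of all genes within 0.02 of 0.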
